A study of Mus musculus with 12 samples.

Results

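The genes described here encode cytokines, chemokines, members of the tumour necrosis factor (TNF) family and their receptors. They were chosen by symbol alone: a gene was a member if its single annotated symbol began with Il, Ccl, Cxcl, Ccr, Cxcr, Tnf, Ifn, Csf or Lif in the forms used for these families, leaving out Ccr7, Csf3r and the Ilf genes. The rule found 36 genes, measured by 41 probes, among 8708 named genes and 16411 features on the array. They were 4 interleukins (Il7, Il16, Il18 and Il1f5), 12 interleukin receptor genes, 6 chemokine ligands, the chemokine receptor Cxcr4, 3 TNF ligands, 4 TNF receptors, 3 TNF-induced (Tnfaip) genes, the interferon receptor gene Ifngr2, and the growth factors Csf1 and Lif. The rule found no interferon gene and not Tnf, Il2 or Il4.

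The study profiled spleen T cells and kidney cells of non-obese diabetic (NOD) mice and relatives with 12 mouse cDNA arrays of 2 colours, 2 arrays in each of 6 groups. The groups were spleen T cells of NOD.H2h4 mice, which carry another major histocompatibility complex (MHC) haplotype on the NOD background, spleen T cells of B6.NODIdd1,5 congenic mice, which carry the NOD Idd1 and Idd5 diabetes intervals on C57BL/6 (B6), spleen T cells of NOD mice, kidney cells of B6.NODIdd1,5 mice, and spleen T cells of mice given bone marrow, from NOD donors into B6 recipients (NODtoB6) or from B6 donors into NOD recipients (B6toNOD). Each array set these cells, in Cy5 on the 8 arrays without marrow transfer, against cells of the same tissue from B6 mice in Cy3. For the 4 arrays with marrow recipients the sources used here name no dyes, so the direction of their ratios is an assumption, as is the reading that their T cells came from the donor marrow, since host cells that survived were not measured. Age, sex, the way T cells were isolated, the conditioning of marrow recipients and whether the 2 arrays of a group came from separate animals are not given either, so every p-value measures only the spread between these arrays.

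Cytokines are secreted proteins that immune and stromal cells use to signal to one another. Interleukins and interferons act through paired receptor chains that switch on JAK kinases and STAT transcription factors, chemokines steer cell movement through receptors coupled to G proteins, and TNF family ligands engage receptors that feed into NF-kappaB or into cell death. In NOD mice, autoimmune diabetes arises when T cells attack the insulin-producing islets, and cytokine and co-stimulatory signals set how T cells survive, move and turn against self.

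All values below are log2 ratios to B6 cells, centred on the median of all features on each array, so 0 means no difference from the median gene and 1 a doubling relative to B6. The centring matters, because the deposited medians were below 0 on every array and differed between groups, from -0.15 in NOD T cells to -0.80 in NOD.H2h4 T cells. Changes are therefore relative to that shift. Of 432 member values, 408 were present, and 1 cell of Tnfsf13b on B6.NODIdd1,5 T cell array 1 held the ratio ceiling and was treated as missing. Between 18837 and 20558 probes had a value on an array. The 2 arrays of a group correlated over all features with Pearson r from 0.51 to 0.76, and arrays of different groups with r from -0.02 to 0.45. The labelled tissue could not be checked from levels, since both channels of an array held the same tissue and only Cd28 and Cd4 of 13 T cell markers were on the array. In whole-population RNA, fewer cells of a type and less RNA per cell cannot be told apart.

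Members agreed closely between the arrays of some groups and poorly in others. The median distance between the 2 arrays of a group, over the members, was 0.06 in B6.NODIdd1,5 kidney cells and 0.67 in B6toNOD T cells. Over all 197 pairs of member values the median distance was 0.17, and 21 pairs lay more than 1 apart.

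**Figure D1:**
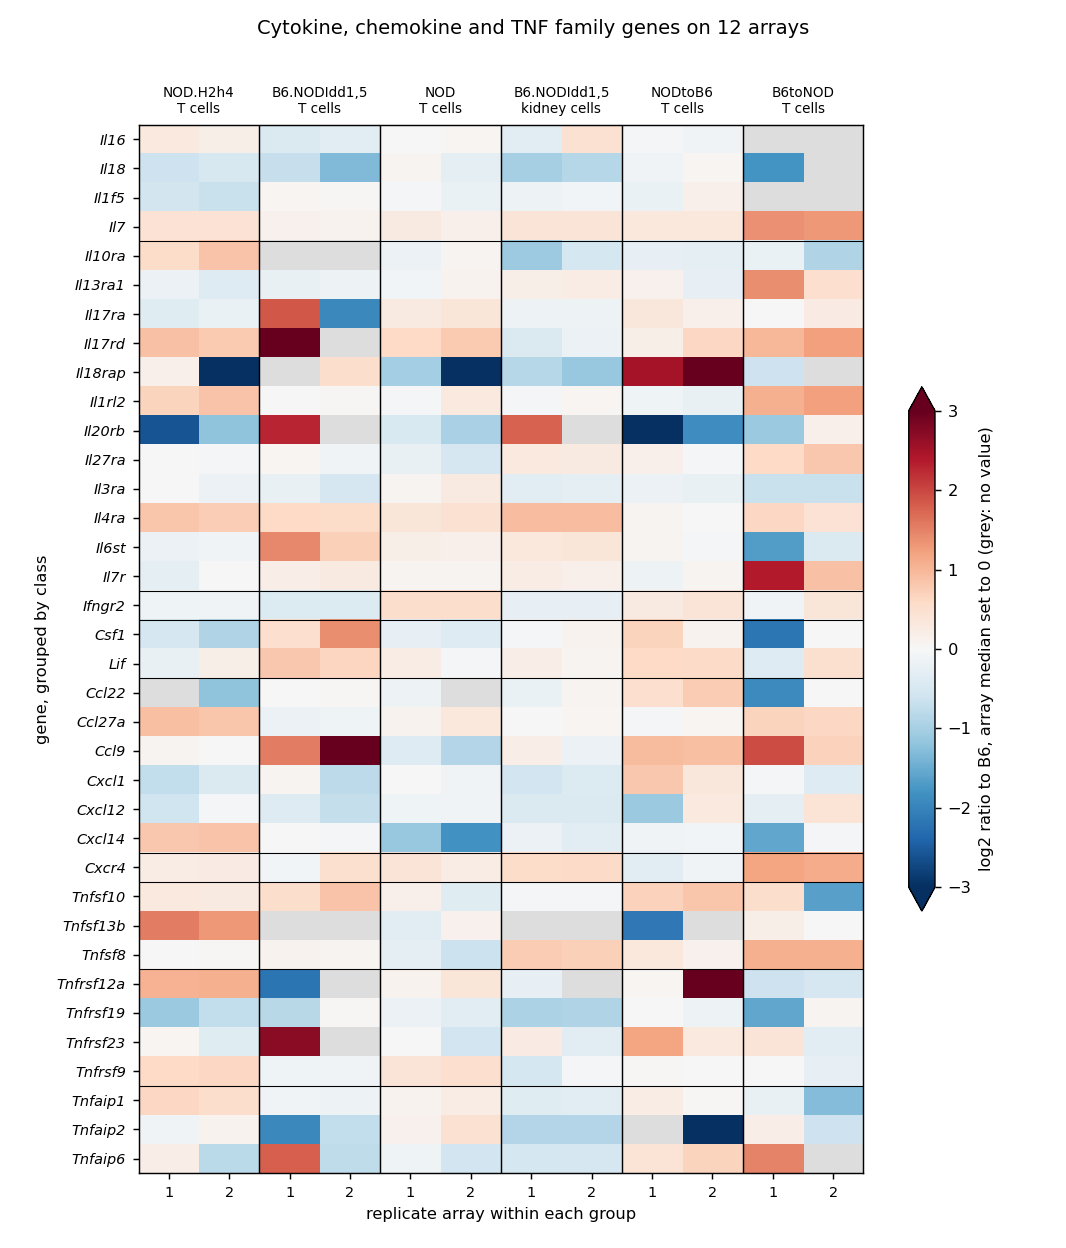
Centred log2 ratio to B6 of each of the 36 members (down the page, by class) on each of the 12 arrays (across, 2 per group). Colour gives the ratio, shown up to 3 either way, with grey cells where there was no value. The red B6toNOD columns of Il7, Il1rl2, Tnfsf8, Cxcr4 and Il7r and the red B6.NODIdd1,5 T cell columns of Ccl9 stand out, while Il16 stays pale throughout.

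Members past the test were found in every group, and their share was below that of all features in 5 of the 6 groups, with NOD T cells the exception. In NOD.H2h4 T cells 8 members were higher and 2 lower of 35 tested, where 39.5% of all features tested passed (24.1% higher and 15.4% lower). In B6.NODIdd1,5 T cells 4 were higher and 4 lower of 29, against 30.3% of features (14.4% higher, 15.9% lower), and in B6.NODIdd1,5 kidney cells 4 were higher and 3 lower of 33, against 33.5% (22.4% higher, 11.1% lower). In NOD T cells 4 were higher and 2 lower of 35, which is 17.1% of the members tested, against 12.2% of features (9.79% higher, 2.46% lower). The reciprocal marrow transfers lay at the ends of the range. In NODtoB6 T cells 1 member was higher and 1 lower of 34, or 5.88%, against 26.8% of features (13.8% higher, 13.1% lower). In B6toNOD T cells 11 were higher and 3 lower of 31, or 45.2%, against 51.4% of features (28.5% higher, 22.9% lower). Every member is a named gene, and named genes passed at other shares than all features. Of named genes tested, 15.5% were higher and 18.5% lower in NOD.H2h4, 10.8% and 18.2% in B6.NODIdd1,5 and 5.56% and 2.28% in NOD T cells. The shares were 14.1% and 11.9% in kidney cells, 12.9% and 12.4% in NODtoB6 and 26.3% and 21.6% in B6toNOD T cells. The members' share of higher calls lay above the named share in NOD.H2h4 (22.9%), B6.NODIdd1,5 (13.8%), NOD (11.4%) and B6toNOD T cells (35.5%). It lay below the named share in kidney cells (12.1%) and NODtoB6 T cells (2.94%). The members' share of lower calls lay below the named share in every group but NOD. The members' median lay between -0.05 and 0.05 in all 6 groups. The members' splits depend on the centring. On the ratios as deposited, 1 member was higher and 19 lower in NOD.H2h4 T cells, 2 and 4 in B6.NODIdd1,5 T cells, none in either direction in NOD T cells, 1 and 13 in kidney cells, 0 and 3 in NODtoB6 T cells and 2 and 15 in B6toNOD T cells. The NOD count also rested on both arrays, with 1 call without NOD array 1 and 0 without NOD array 2. Other counts moved by more than 1.5 times without 1 array: NOD.H2h4 had 6 without its array 2, kidney 3 without its array 1 and 4 without its array 2, and NODtoB6 had 6 without either B6toNOD array.

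**Figure D2:**
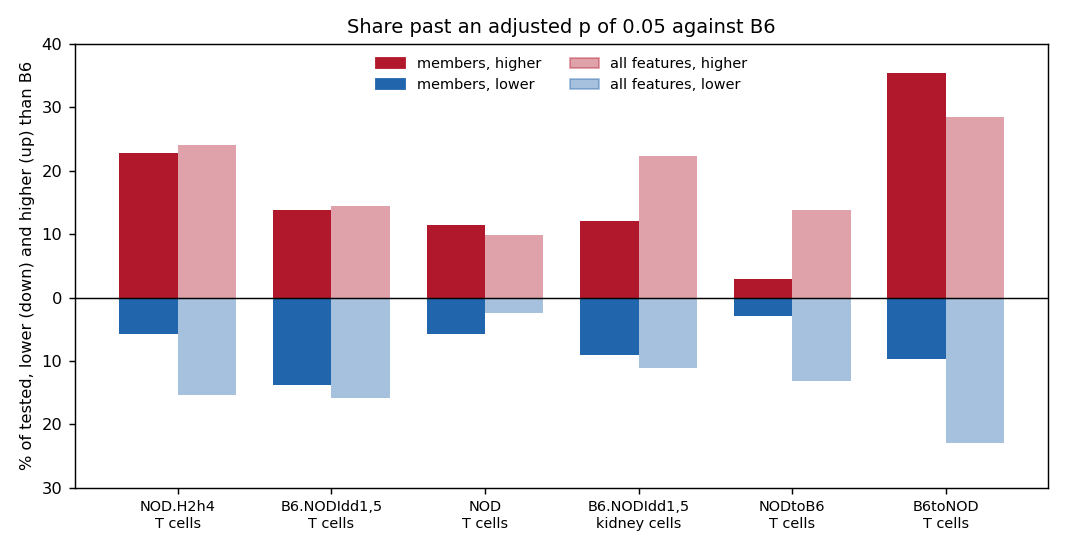
Share of tested members past the threshold in each group's comparison with B6 (percent, adjusted p under 0.05), with higher calls upward and lower calls downward, drawn in full colour beside the paler share of all features tested. In NOD T cells the members' share is the larger (17.1% against 12.2%), and in NODtoB6 T cells it is 5.88% against 26.8%.

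Calls that recurred across groups were few. Of the 36, 12 passed in no group, 10 in 1 group, 8 in 2, 4 in 3, Il7 in 4 and Il4ra in 5. Among the 23 members tested in all 6 groups, 17.4% passed in 3 or more, against 37.4% of the 12451 features tested in all 6. Across the groups, 16 of these 23 members varied by more than the spread between arrays in a moderated F-test, where 64.1% of features passed. The largest F values belonged to Il7 (58.2, adjusted p = 1.2e-04), Tnfsf8 (38.0, adjusted p = 3.0e-04), Ccl27a (32.2, adjusted p = 4.3e-04) and Il1rl2 (29.0, adjusted p = 5.5e-04). They were followed by Il4ra (19.2), Il27ra (13.5), Cxcr4 (13.2), Ifngr2 (11.8), Il3ra (10.6), Tnfrsf9 (10.6), Il6st (6.65) and Cxcl14 (6.41). Cxcl1, Csf1, Lif, Tnfsf10, Tnfrsf19, Cxcl12 and Il17ra did not pass it.

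The promoters of 4 members on which the comparisons turn are shown to give the sequence context of genes that different groups called. Il4ra is the member called in the most groups, Tnfrsf9 encodes a co-stimulatory receptor called in both groups on the whole NOD background, Ccl9 had the largest called rise on the arrays with a known direction, and Il7r had the largest called rise of the B6toNOD group in the assumed direction of its ratios. Each runs from 250 bases before to 50 bases after the gene's start, 5′ to 3′ on the gene's own strand, from RefSeq on GRCm38.p6, with the minus strand for Ccl9 and Il7r and the plus strand for the other two. Where a gene had several windows, the one with the most matches to the motifs below is shown. The windows are chr7:125552021-125552320 for Il4ra, chr4:150927749-150928048 for Tnfrsf9, chr11:83578587-83578886 for Ccl9 and chr15:9529827-9530126 for Il7r. Capitals mark matches on either strand to 3 motifs chosen after the values were seen: an NF-kappaB motif (GGG, any 2 bases, then TTTCC), a STAT motif (TTCNNNGAA) and an AP-1 motif (TGANTCA).
Il4ra: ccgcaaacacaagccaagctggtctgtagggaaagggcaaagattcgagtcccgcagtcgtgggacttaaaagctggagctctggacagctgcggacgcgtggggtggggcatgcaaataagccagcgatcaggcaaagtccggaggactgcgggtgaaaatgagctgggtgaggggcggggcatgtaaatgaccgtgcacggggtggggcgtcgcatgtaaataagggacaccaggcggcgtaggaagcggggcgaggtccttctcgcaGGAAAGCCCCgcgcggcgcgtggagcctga
Tnfrsf9: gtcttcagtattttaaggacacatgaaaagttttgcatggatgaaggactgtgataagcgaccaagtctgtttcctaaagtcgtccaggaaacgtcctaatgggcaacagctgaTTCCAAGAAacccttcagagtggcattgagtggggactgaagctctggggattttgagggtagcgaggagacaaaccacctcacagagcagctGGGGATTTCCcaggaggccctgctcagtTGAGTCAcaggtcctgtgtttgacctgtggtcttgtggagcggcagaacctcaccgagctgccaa
Ccl9: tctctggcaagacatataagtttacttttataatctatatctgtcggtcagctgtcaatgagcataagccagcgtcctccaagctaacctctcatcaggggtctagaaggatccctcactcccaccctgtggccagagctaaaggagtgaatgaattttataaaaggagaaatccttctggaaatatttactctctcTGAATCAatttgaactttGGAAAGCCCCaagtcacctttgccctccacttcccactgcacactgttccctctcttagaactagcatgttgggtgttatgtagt
Il7r: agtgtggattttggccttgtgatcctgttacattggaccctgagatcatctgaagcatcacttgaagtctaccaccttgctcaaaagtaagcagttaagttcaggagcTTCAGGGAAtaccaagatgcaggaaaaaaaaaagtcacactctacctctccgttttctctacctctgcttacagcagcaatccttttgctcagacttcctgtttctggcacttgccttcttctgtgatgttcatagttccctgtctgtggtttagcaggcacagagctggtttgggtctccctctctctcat

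Il4ra held 1 NF-kappaB match, Ccl9 an NF-kappaB and an AP-1 match, Il7r a STAT match, and Tnfrsf9 all 3. In Tnfrsf9 the NF-kappaB match began 43 bases before the start and did not overlap the AP-1 match that began 15 bases before it. Windows were found for 32 of the 36 members, with Il7, Il27ra, Il17ra and Il10ra not among them. Those members had 40 windows in all. The NF-kappaB letters were in 7 of the 40, of 7 members (Ccl9, Csf1, Cxcl1, Ifngr2, Il16, Il4ra and Tnfrsf9), and in 1.63% of all 32851 windows. The STAT letters were in 6 of the 40, of 6 members, and 8.30% of all windows. The AP-1 letters were in 8 of the 40, of 7 members, and 7.81% of all windows. A match is a string of letters and no measure of binding.

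Il7 encodes the stromal cytokine that keeps naive T cells alive, and Il7r encodes the chain of its receptor on T cells. Il7 was above B6 on all 8 arrays without marrow transfer and, in the assumed direction, on the 4 with it. It read 0.44 and 0.43 in NOD.H2h4 T cells, 0.12 and 0.10 in B6.NODIdd1,5 T cells, 0.27 and 0.14 in NOD T cells, 0.39 and 0.39 in kidney cells, 0.32 and 0.32 in NODtoB6 T cells, and 1.37 and 1.30 in B6toNOD T cells. The B6toNOD arrays stood clear of all others, and the other 10 arrays lay between 0.10 and 0.44. The rise passed in NOD.H2h4 (0.43 ± 0.0635, SE, adjusted p = 0.0014), kidney (0.39 ± 0.0635, adjusted p = 0.003), NODtoB6 (0.32 ± 0.0635, adjusted p = 0.012) and B6toNOD (1.33 ± 0.0635, adjusted p = 6.9e-06). Before centring, Il7 was at -0.37 in NOD.H2h4 T cells and -0.07 in kidney cells, while the B6toNOD rise passed in every alternative run. None of those runs turned the B6toNOD arrays. The NODtoB6 call was lost without its array 1 (adjusted p = 0.053) or its array 2 (adjusted p = 0.063). Il7r read 2.38 and 0.88 in B6toNOD T cells, and the rise there was 1.63 ± 0.29 (3.09-fold, adjusted p = 0.0026). It was 0.87 on the deposited ratios and did not pass (adjusted p = 0.053). On the other 10 arrays Il7r lay between -0.26 and 0.26 and passed in no group, so the ligand and the receptor chain were both high in B6toNOD T cells.

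Il4ra encodes the chain shared by the receptors for IL-4 and IL-13, the cytokines of type 2 T cell responses. After centring, Il4ra was above B6 in every group but NODtoB6. Its values were 0.83 and 0.75 in NOD.H2h4 T cells, 0.61 and 0.54 in B6.NODIdd1,5 T cells, 0.36 and 0.46 in NOD T cells, 0.92 and 0.92 in kidney cells, 0.63 and 0.43 in B6toNOD T cells, and 0.093 and -0.002 in NODtoB6 T cells. The rises were 0.79 ± 0.075 (adjusted p = 2.0e-04), 0.57 ± 0.075 (adjusted p = 0.0013), 0.41 ± 0.075 (adjusted p = 0.015), 0.92 ± 0.075 (adjusted p = 2.9e-04) and 0.53 ± 0.075 (adjusted p = 8.0e-04), in that order of groups. The kidney rise passed in every alternative run. Before centring the NOD.H2h4 value was -0.01 and the B6toNOD value -0.23. The NOD (0.26, adjusted p = 0.36) and B6.NODIdd1,5 T cell rises (0.40, adjusted p = 0.053) did not pass on the deposited ratios either. The NOD call also rested on both NOD arrays. Il13ra1, the partner chain for IL-13, passed only in B6toNOD T cells, at 1.40 and 0.50 (0.95 ± 0.20, adjusted p = 0.0055). It lay between -0.39 and 0.22 on the other arrays, and on the deposited ratios the rise did not pass (0.18, adjusted p = 0.49).

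Il1rl2 encodes the receptor for the IL-36 cytokines, and Il1f5 encodes the antagonist of that receptor. The receptor rose in NOD.H2h4 T cells, at 0.68 and 0.86 (0.77 ± 0.10, adjusted p = 8.1e-04), and in B6toNOD T cells, at 1.06 and 1.22 (1.14 ± 0.10, adjusted p = 7.6e-05). On the other 8 arrays it lay between -0.23 and 0.30, below all 4 of these. The receptor was at -0.031 in NOD.H2h4 T cells on the deposited ratios (adjusted p = 0.81). The antagonist fell in NOD.H2h4 T cells, at -0.54 and -0.66 (-0.60 ± 0.10, adjusted p = 0.0044), a call lost without NOD.H2h4 array 2 (adjusted p = 0.062). It lay between -0.20 and 0.16 on the other arrays with a value, and had no value on the B6toNOD arrays. Il1rl2 lies on chromosome 1, as do Il18rap and Cxcr4. The Idd5 interval also lies there, but whether it holds these genes was not checked. Il1rl2 read 0.02 and 0.05 in B6.NODIdd1,5 T cells and -0.04 and 0.05 in their kidney cells.

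Il18 encodes a cytokine of the IL-1 family that drives interferon gamma production. It was lower than B6 in both tissues of the congenic mice. In B6.NODIdd1,5 T cells it read -0.70 and -1.32 (-1.01 ± 0.165, adjusted p = 0.0053) and in their kidney cells -0.99 and -0.85 (-0.92 ± 0.165, adjusted p = 0.0066). The T cell call was kept in every alternative run that tested Il18. The kidney call was lost without kidney array 1 (adjusted p = 0.086) and without kidney array 2 (adjusted p = 0.055). In NOD.H2h4 T cells it read -0.62 and -0.47 (-0.55 ± 0.165, adjusted p = 0.04), a call lost without either NOD.H2h4 array (adjusted p = 0.26 and 0.15). The single B6toNOD array with a value was lower still, at -1.79. NOD T cells (0.08 and -0.28) and NODtoB6 T cells (-0.10 and 0.06) lay around 0. Il18rap, the accessory chain of the IL-18 receptor on chromosome 1, varied more than any other member: it read 0.15 and -4.42 in NOD.H2h4 T cells, -1.01 and -3.52 in NOD T cells, and 2.51 and 3.44 in NODtoB6 T cells. None of these passed (NODtoB6 2.98 ± 1.15, adjusted p = 0.12).

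Il3ra, the chain that binds IL-3, a growth factor of blood progenitors and mast cells, was lower in 3 groups. It read -0.23 and -0.51 in B6.NODIdd1,5 T cells (-0.37 ± 0.091, adjusted p = 0.02), -0.33 and -0.30 in kidney cells (-0.31 ± 0.091, adjusted p = 0.034) and -0.67 and -0.66 in B6toNOD T cells (-0.66 ± 0.091, adjusted p = 7.2e-04). The B6toNOD fall passed in every alternative run, with the B6toNOD arrays never turned. The B6.NODIdd1,5 T cell call was lost without array 2 of that group. The kidney call was lost without its array 1 (adjusted p = 0.22) and its array 2 (adjusted p = 0.18). Il27ra, the receptor chain for IL-27, rose in B6toNOD T cells, at 0.59 and 0.80 (0.70 ± 0.10, adjusted p = 9.0e-04), and lay between -0.50 and 0.29 elsewhere. Before centring its B6toNOD value was -0.06.

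Il17rd, a receptor-like protein that dampens growth factor signalling, rose in 3 groups of T cells. Its values were 0.88 and 0.78 in NOD.H2h4 (0.83 ± 0.135, adjusted p = 0.0036), 0.59 and 0.77 in NOD (0.68 ± 0.135, adjusted p = 0.024) and 1.01 and 1.24 in B6toNOD (1.12 ± 0.135, adjusted p = 6.7e-04). None of the 3 passed on the deposited ratios, where they were 0.028 (adjusted p = 0.88), 0.53 (adjusted p = 0.17) and 0.36 (adjusted p = 0.072) in that order of groups. The NOD call was also lost without NOD array 1 (adjusted p = 0.10), NOD array 2 (adjusted p = 0.26) or either NOD.H2h4 array (adjusted p = 0.051). The B6.NODIdd1,5 T cell arrays gave 1 value, 3.14, and were not tested. Il17ra, the receptor for IL-17, passed in no group, and its B6.NODIdd1,5 T cell arrays disagreed at 1.87 and -1.94. Il10ra, the binding chain for the inhibitory cytokine IL-10, was higher in NOD.H2h4 T cells, at 0.56 and 0.86 (0.71 ± 0.20, adjusted p = 0.033), and lower in B6.NODIdd1,5 kidney cells, at -1.08 and -0.54 (-0.81 ± 0.20, adjusted p = 0.024). The first call was lost without either array of its group (adjusted p = 0.1 and 0.26), and so was the second (adjusted p = 0.26 and 0.051). Il20rb, a receptor chain for IL-20 family cytokines, was lower in the assumed direction, at -3.78 and -1.86 in NODtoB6 T cells (-2.82 ± 0.59, 7.07-fold lower, adjusted p = 0.023), and the call was lost without NODtoB6 array 1 (adjusted p = 0.14). With the dyes the other way round it would be a rise of the same size. It read -2.58 and -1.21 in NOD.H2h4 T cells (adjusted p = 0.054), and 2.29 and 1.78 on the single arrays with a value of B6.NODIdd1,5 T cells and kidney cells. Il16, a chemoattractant for CD4 cells, was tested in 5 groups and passed in none, with values from -0.44 to 0.46.

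Il6st encodes gp130, the signalling chain shared by IL-6 and LIF receptors, and Ifngr2 encodes the signalling chain of the interferon gamma receptor. By gene mean, Il6st was higher in B6.NODIdd1,5 T cells, at 1.43 and 0.72 (1.07 ± 0.27, adjusted p = 0.022), and lower in B6toNOD T cells, at -1.68 and -0.44 (-1.06 ± 0.27, adjusted p = 0.014). The B6toNOD arrays do not rest on the same probes, since probe 1 had no value on array 1 and read 0.12 on array 2. That call was lost without B6toNOD array 1 (adjusted p = 0.15), and the B6.NODIdd1,5 call without array 1 of its group (adjusted p = 0.23). Ifngr2 was higher in NOD T cells, at 0.53 and 0.53 (0.53 ± 0.11, adjusted p = 0.021), and lower in B6.NODIdd1,5 T cells, at -0.42 and -0.41 (-0.41 ± 0.11, adjusted p = 0.024). Both genes have 2 probes, and the probes disagreed. Probe 1 of Ifngr2 was lower and probe 2 higher in NOD.H2h4 T cells (-0.94 and 0.71), in B6.NODIdd1,5 T cells (-1.25 and 0.42) and in kidney cells (-1.04 and 0.55), all 6 past the threshold, while in NOD T cells both were above 0 (0.44, not past, and 0.62, adjusted p = 0.0039). For Il6st in B6.NODIdd1,5 T cells, probe 1 was at -0.36 (adjusted p = 0.086) and probe 2 at 2.51 (adjusted p = 0.0026). In B6toNOD T cells probe 2 of Il6st on its own was at -1.34 (adjusted p = 0.022). In those 3 groups for Ifngr2, and in B6.NODIdd1,5 T cells for Il6st, the gene mean averages probes of opposite sign and gives no direction for the gene.

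**Figure D3:**
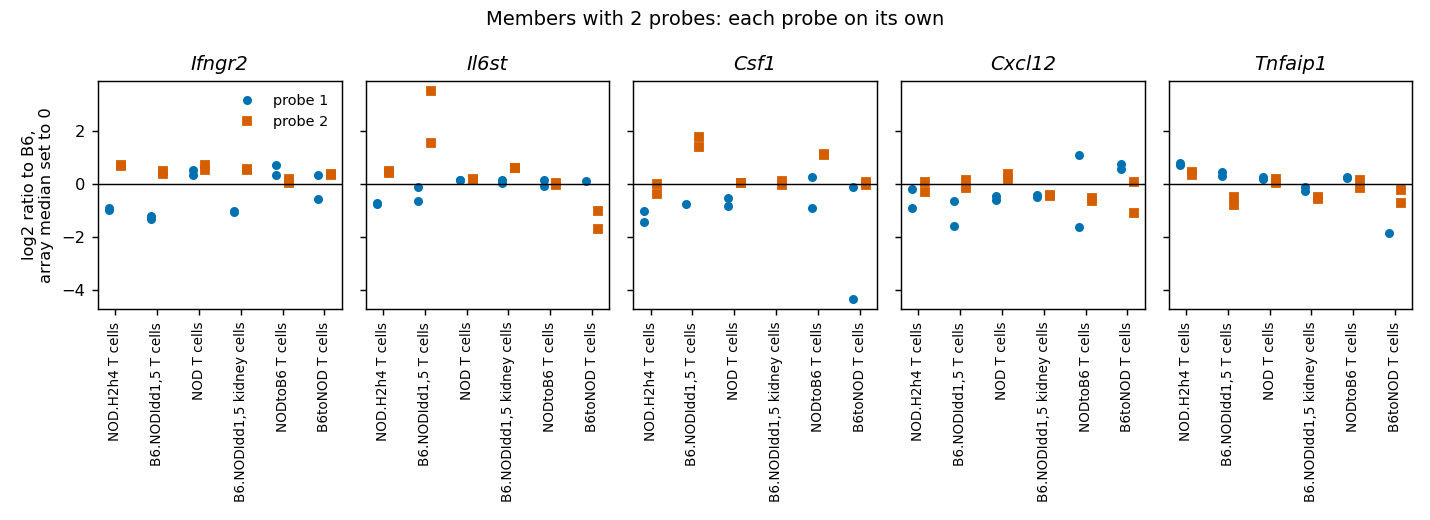
Centred log2 ratio of each probe of the 5 members with 2 probes (Csf1, Cxcl12, Ifngr2, Il6st and Tnfaip1), by group, with points for the arrays. The Ifngr2 probes lie on opposite sides of 0 in NOD.H2h4 T cells, B6.NODIdd1,5 T cells and kidney cells (-0.94 and 0.71 in the first), and on the same side in NOD T cells.

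Lif and Csf1 are growth factors, Lif acting through gp130 and Csf1 on macrophages. Lif rose in B6.NODIdd1,5 T cells, at 0.80 and 0.66 (0.73 ± 0.20, adjusted p = 0.027), a call lost without either of those arrays (adjusted p = 0.18 and 0.1), and read 0.59 and 0.58 in NODtoB6 T cells (adjusted p = 0.064). Csf1 passed in no group by gene mean, at -0.49 and -0.90 in NOD.H2h4, 0.51 and 1.39 in B6.NODIdd1,5 and -2.18 and -0.02 in B6toNOD T cells. Its probe 1 was missing on several arrays and read -4.32 on B6toNOD array 1. Its probe 2 on its own was higher in B6.NODIdd1,5 T cells (1.58, adjusted p = 1.1e-04) and in NODtoB6 T cells (1.11, adjusted p = 9.6e-04).

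Ccl9, a CC chemokine that draws myeloid cells, read 1.54 and 3.63 in B6.NODIdd1,5 T cells (2.59 ± 0.47, 6.0-fold, adjusted p = 0.0057), a call kept in every alternative run. The arrays differed by more than 2 on the log2 scale yet both exceeded every array of the NOD.H2h4, NOD, kidney and NODtoB6 groups, which lay between -0.88 and 0.96. In B6toNOD T cells it read 1.97 and 0.69 (1.33 ± 0.47, adjusted p = 0.048), and this call was lost without B6toNOD array 1 (adjusted p = 0.41) and without arrays of other groups (adjusted p from 0.069 to 0.071). Ccl27a, a ligand for skin-homing T cells, rose in NOD.H2h4 T cells, at 0.91 and 0.83 (0.87 ± 0.075, adjusted p = 1.4e-04), and in B6toNOD T cells, at 0.66 and 0.61 (0.64 ± 0.075, adjusted p = 3.4e-04). Its other 8 arrays lay between -0.18 and 0.32. On the deposited ratios neither rise passed, at 0.065 in NOD.H2h4 T cells (adjusted p = 0.64) and -0.13 in B6toNOD T cells (adjusted p = 0.36). Cxcl14, a CXC chemokine made by epithelia, fell in NOD T cells, at -1.14 and -1.81 (-1.47 ± 0.31, adjusted p = 0.023), and read 0.80 and 0.85 in NOD.H2h4 T cells without passing (adjusted p = 0.071). The NOD call rested on both NOD arrays and did not pass on the deposited ratios (-1.63, adjusted p = 0.054). Cxcl1, which attracts neutrophils, Ccl22, which attracts type 2 and regulatory T cells, and Cxcl12 passed in no group. Cxcl12, the ligand of Cxcr4, ranged over its 12 arrays from -1.12 to 0.41.

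Cxcr4, which guides T cells and blood progenitors along Cxcl12, rose in B6toNOD T cells, at 1.18 and 1.12 (1.15 ± 0.13, adjusted p = 2.6e-04), and in B6.NODIdd1,5 kidney cells, at 0.56 and 0.58 (0.57 ± 0.13, adjusted p = 0.013). The kidney call was lost without either kidney array (adjusted p = 0.11 each). On the deposited ratios neither passed, at 0.39 in B6toNOD T cells (adjusted p = 0.10) and 0.11 in kidney cells (adjusted p = 0.68). NODtoB6 T cells read -0.33 and -0.10, the lowest of the groups.

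Tnfsf8, which encodes the CD30 ligand, differed from B6 in both directions. It read -0.01 and 0.04 in NOD.H2h4 T cells, 0.11 and 0.08 in B6.NODIdd1,5 T cells, -0.29 and -0.64 in NOD T cells, 0.77 and 0.72 in kidney cells, 0.31 and 0.14 in NODtoB6 T cells and 1.07 and 1.07 in B6toNOD T cells. It was lower than B6 in NOD T cells (-0.47 ± 0.093, adjusted p = 0.019) and higher in kidney cells (0.74 ± 0.093, adjusted p = 0.0011) and in B6toNOD T cells (1.07 ± 0.093, adjusted p = 7.3e-05). None of these passed on the deposited ratios, at -0.62 in NOD T cells (adjusted p = 0.12), 0.28 in kidney cells (adjusted p = 0.19) and 0.31 in B6toNOD T cells (adjusted p = 0.11). The NOD call was also lost without NOD array 2 (adjusted p = 0.23). Tnfsf13b, which encodes the B cell survival factor BAFF, rose in NOD.H2h4 T cells, at 1.54 and 1.31 (1.43 ± 0.15, adjusted p = 0.0027), with the call kept in every alternative run. It read -0.34 and 0.14 in NOD T cells and 0.17 and -0.0028 in B6toNOD T cells, -2.15 on a single NODtoB6 array, and had no value in the congenic groups. Tnfsf10, which encodes the death ligand TRAIL, passed in no group.

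Tnfrsf9 encodes 4-1BB, a co-stimulatory receptor of activated T cells. It was higher in both groups on the whole NOD background, at 0.60 and 0.63 in NOD.H2h4 T cells (0.61 ± 0.11, adjusted p = 0.0043) and 0.38 and 0.51 in NOD T cells (0.45 ± 0.11, adjusted p = 0.045). All 4 of those arrays exceeded the other 8, which lay between -0.52 and 0.03. On the deposited ratios neither rise passed, at -0.19 in NOD.H2h4 T cells (adjusted p = 0.29) and 0.30 in NOD T cells (adjusted p = 0.37). The NOD.H2h4 call was lost without its array 2 (adjusted p = 0.054), and the NOD call in 10 of 19 alternatives, including without either NOD array (adjusted p = 0.15 and 0.39). Tnfrsf12a, the TWEAK receptor, read 1.03 and 1.06 in NOD.H2h4 T cells and 0.05 and 3.22 in NODtoB6 T cells, and passed in neither, as did Tnfrsf19 and the decoy receptor Tnfrsf23 in any group.

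The Tnfaip genes are named for induction by TNF and do not share a single function. Tnfaip2 fell in B6.NODIdd1,5 T cells, at -1.94 and -0.74 (-1.34 ± 0.30, adjusted p = 0.019), a call lost without array 1 of that group (adjusted p = 0.14). It read -0.88 and -0.87 in their kidney cells (adjusted p = 0.071), and -3.47 on the single NODtoB6 array with a value. Tnfaip1, an adaptor for a ubiquitin ligase, was lower in B6toNOD T cells, at -0.22 and -1.29 (-0.75 ± 0.21, adjusted p = 0.02), a call lost without B6toNOD array 2 (adjusted p = 0.13). The first of those values is probe 2 alone, and the second the mean of both probes (-1.86 and -0.72). Probe 2 of Tnfaip1 was lower there too (-0.47, adjusted p = 0.025), while in B6.NODIdd1,5 T cells probes 1 and 2 were at 0.38 (adjusted p = 0.014) and -0.64 (adjusted p = 0.012). In NOD.H2h4 T cells both were above 0, at 0.76 (adjusted p = 5.5e-04) and 0.39 (adjusted p = 0.060). The gene mean did not pass there. Tnfaip6, a hyaluronan-binding protein, passed in no group.

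**Figure D4:**
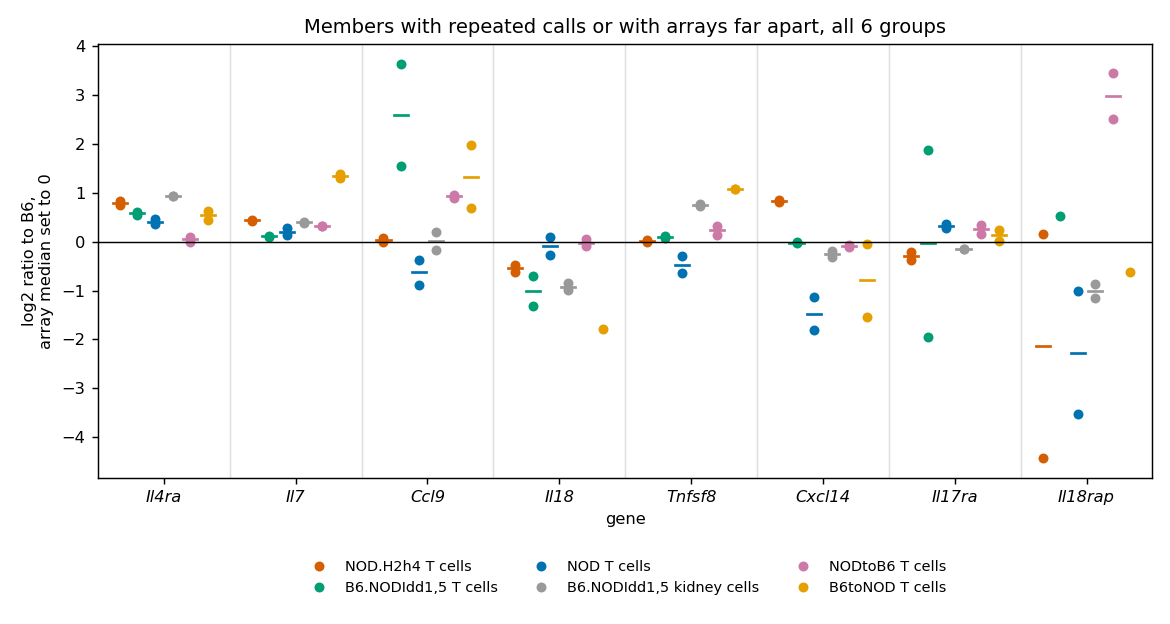
Centred log2 ratio to B6 on each array (points) and the mean of the 2 arrays (line) in all 6 groups, for 8 members with calls in several groups or with arrays far apart. Ccl9 is highest in B6.NODIdd1,5 T cells (1.54 and 3.63), Tnfsf8 lies below 0 in NOD T cells and above it in kidney and B6toNOD cells, and the Il17ra and Il18rap arrays of a group lie up to several units apart.

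Setting NOD.H2h4 against NOD T cells compares MHC haplotypes on the NOD background. In this difference 6 members were higher and 1 lower of 35 tested, where 18.2% of features passed (12% higher, 6.22% lower), and the members' median was 0.13. Cxcl14 differed most: it read 0.80 and 0.85 in NOD.H2h4 T cells, against -1.14 and -1.81 in NOD T cells, a difference of 2.30 ± 0.44 (4.92-fold, adjusted p = 0.013). That call rested on NOD array 2 and on both NOD.H2h4 arrays. Tnfsf13b was higher by 1.52 ± 0.215 (adjusted p = 0.016), Ccl27a by 0.65 ± 0.11 (adjusted p = 0.0081), Il1rl2 by 0.64 ± 0.14 (adjusted p = 0.021), Tnfsf8 by 0.48 ± 0.13 (adjusted p = 0.043) and Il4ra by 0.38 ± 0.11 (adjusted p = 0.047). The gene mean of Ifngr2 differed by -0.64 ± 0.15 (adjusted p = 0.027), but its probe 2 did not share that sign, at 0.71 in NOD.H2h4 T cells, against 0.62 in NOD T cells. For Il17rd (0.14 ± 0.19) and Tnfrsf9 (0.17 ± 0.16) no difference between these groups passed. Only 0, 1, 3 and 3 members passed without NOD.H2h4 array 1, NOD.H2h4 array 2, NOD array 1 and NOD array 2, in that order, and 4 without either kidney array. On the deposited ratios 2 were higher and 5 lower.

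Setting B6.NODIdd1,5 against NOD T cells compares the Idd1 and Idd5 intervals on B6 with the whole NOD genome. Here 3 members were higher and 6 lower of 28 tested, where 24.3% of features passed (9.41% higher, 14.9% lower), with a member median of -0.10. Ccl9 read 1.54 and 3.63 in the congenic T cells, against -0.38 and -0.88 in NOD T cells (3.22 ± 0.66, 9.29-fold, adjusted p = 0.013), a call lost without NOD array 2 (adjusted p = 0.085). Tnfsf8 (0.56 ± 0.13, adjusted p = 0.021) and Cxcl14 (1.45 ± 0.44, adjusted p = 0.0499) were also higher. The Cxcl14 call was lost in 14 of 19 alternatives. Ifngr2 by gene mean (-0.94 ± 0.15, adjusted p = 0.0051), Tnfaip2 (-1.63 ± 0.43, adjusted p = 0.039), Il18 (-0.91 ± 0.23, adjusted p = 0.035), Tnfrsf9 (-0.57 ± 0.16, adjusted p = 0.042), Il3ra (-0.55 ± 0.13, adjusted p = 0.021) and Ccl27a (-0.36 ± 0.11, adjusted p = 0.045) were lower. Only the Ifngr2 difference, by a mean of probes that disagree in the congenic T cells, passed in every alternative run. Both probes lay lower in the congenic than in NOD T cells, and probe 1 by far more. Probe 1 was at -1.25 against 0.44 and probe 2 at 0.42 against 0.62, with the difference not tested by probe. With the replicate number as a block 4 members passed, and without NOD array 2 only 1 did. Counts of 4 or 5 came without NOD array 1, B6.NODIdd1,5 T cell array 1, either NOD.H2h4 array or either kidney array. On the deposited ratios 1 was higher and 2 lower.

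In B6.NODIdd1,5 mice, T cells set against kidney cells ask whether the congenic effect differs between tissues, each against B6 cells of its own tissue. Of 29 members tested, 1 was higher and 1 lower in T cells, where 21% of features passed (6.9% higher, 14.1% lower). Ccl9 read 1.54 and 3.63 in T cells, against 0.20 and -0.18 in kidney cells (2.58 ± 0.66, 5.96-fold, adjusted p = 0.032). Tnfsf8 read 0.11 and 0.08 in T cells, against 0.77 and 0.72 in kidney cells (-0.65 ± 0.13, adjusted p = 0.013). Il18 was low in both, with a difference of -0.09 ± 0.23 that did not pass. With the replicate number as a block only Tnfsf8 passed. Without kidney array 2 none passed, without kidney array 1, either NOD array or either NOD.H2h4 array 1 did, and 5 or 6 did without B6.NODIdd1,5 T cell array 2 or either B6toNOD array. On the deposited ratios only Ccl9 did.

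The reciprocal transfers were set against each other in NODtoB6 minus B6toNOD T cells. Here 1 member was higher and 10 lower of 29 tested, or 37.9%, close to the 36% of features that passed (13.8% higher, 22.2% lower), and the members' median was 0.15, above 0 although most calls were lower. Il7r was lower in NODtoB6 T cells by 1.67 on the log2 scale, at -0.15 and 0.08, against 2.38 and 0.88 in B6toNOD T cells (SE 0.41, adjusted p = 0.016). Cxcr4 differed by -1.36 ± 0.18 (adjusted p = 0.0011), Il1rl2 by -1.32 ± 0.14 (adjusted p = 4.3e-04) and Il7 by -1.02 ± 0.090 (adjusted p = 2.0e-04). Il13ra1 differed by -1.0 ± 0.28 (adjusted p = 0.027) and Tnfsf8 by -0.85 ± 0.13 (adjusted p = 0.0022). Il17rd, Il27ra, Ccl27a and Il4ra were also lower, by 0.49 to 0.73, and Il3ra was higher, by 0.47 ± 0.13 (adjusted p = 0.027). The Il7r difference was lost without NODtoB6 array 1 (adjusted p = 0.072) or array 2 (adjusted p = 0.052), that of Il13ra1 without NODtoB6 array 2 (adjusted p = 0.13) or B6toNOD array 1 (adjusted p = 0.06), and that of Il3ra without any 1 of the 4 transfer arrays (adjusted p from 0.058 to 0.089). The Cxcr4 and Il1rl2 differences passed in every alternative run, apart from the turned direction below. Donor and recipient strain change together between these groups, so the effects of donor and host cannot be told apart. The split rested on the centring, with 9 higher and 2 lower on the deposited ratios, 17 members passed without B6toNOD array 2, and 4 passed when the arrays were scaled to equal spread. If the dyes of the NODtoB6 arrays were the other way round, 2 members would be higher and 12 lower. The B6toNOD arrays were not turned in any run.

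**Figure D5:**
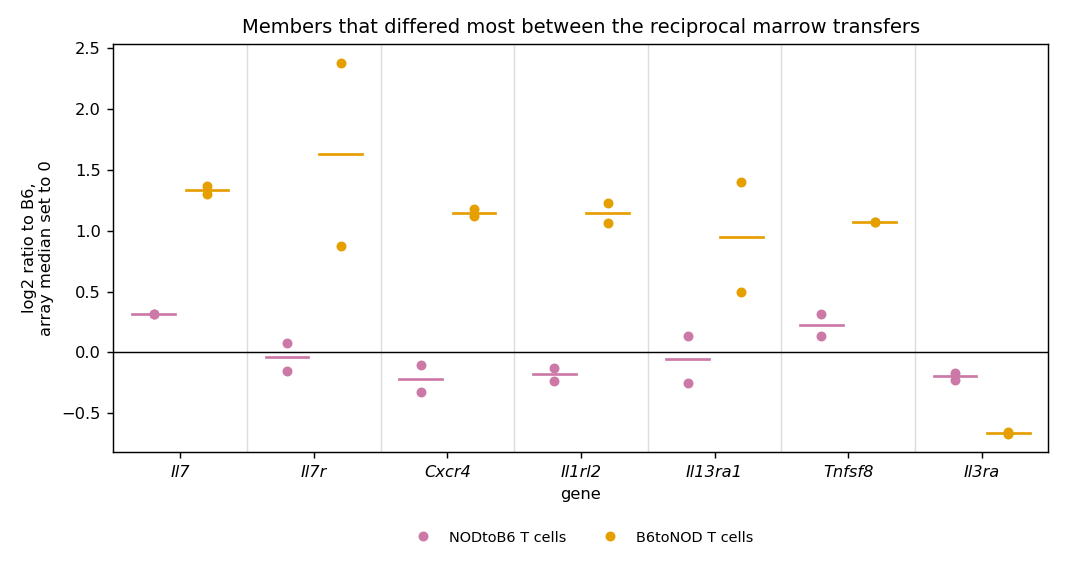
Centred log2 ratio to B6 on each NODtoB6 array (left) and B6toNOD array (right) for members that differed between the transfers, with a line at each mean. Il7r, Cxcr4, Il1rl2 and Il7 lie higher on both B6toNOD arrays than on either NODtoB6 array; the direction of both sets is assumed.

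Markers of other cells differed from B6 in every group. All 5 myeloid markers on the array (Fcgr3, Lcn2, Ltf, Lyz2 and S100a9, of 14 listed) were above B6 in B6toNOD T cells, with array means of 3.98 and 3.93 and a median of 3.57, and in NODtoB6 T cells, with array means of 2.10 and 1.97 and a median of 2.57. In NOD.H2h4 T cells 3 were higher and 2 lower (median 0.41), in NOD T cells 4 were higher (median 0.59), in B6.NODIdd1,5 T cells 1 was higher and 3 lower (median -0.44), and in kidney cells 1 was higher and 2 lower (median -0.05). Red cell markers (5 of 9 listed) showed 3 higher and none lower in the NOD.H2h4, NOD, NODtoB6 and B6toNOD groups, 4 lower in B6.NODIdd1,5 T cells, and none past the test in kidney cells. Of 5 B cell markers on the array, Btk (1.37) and Cd24a (1.43) were higher and Cd79b (-2.04) lower in B6toNOD T cells, where Blnk (-1.87) and Ighm (-0.22) did not pass. In the other groups 2 B cell markers were higher and 1 lower in NOD.H2h4, 1 and 1 in B6.NODIdd1,5, 3 and 0 in NOD, and 2 and 0 in NODtoB6 T cells, and 0 and 1 in kidney cells. The T cell marker Cd28 was lower in NOD.H2h4 (-0.58) and B6.NODIdd1,5 T cells (-1.39) and in kidney cells (-1.17), higher in NOD (0.59) and NODtoB6 T cells (0.61), and did not pass in B6toNOD T cells (0.19). Cd4, the other T cell marker on the array, passed in no group and was not tested in B6.NODIdd1,5 or B6toNOD T cells. Cd28 was thus the only T cell marker tested in B6.NODIdd1,5 T cells, and it was lower in both tissues of these mice. Whether its fall there followed the number of T cells was not tested. The median of the 2 was -0.57 in NOD.H2h4, 0.26 in NOD and 0.98 in NODtoB6 T cells, and -1.23 in kidney cells. The NK cell marker Ncr1 was lower in NOD.H2h4 (-1.04) and B6toNOD T cells (-0.65). The kidney markers Umod (1.01) and Lrp2 (0.88) were higher in the congenic kidney cells than in B6 kidney, all 3 kidney markers were lower in NOD.H2h4 T cells, 1 was higher and 1 lower in B6.NODIdd1,5 T cells, and 1 was lower in B6toNOD T cells. The part of all these markers in the member values was not tested.

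Signalling genes downstream of these receptors were counted from lists. Their values are centred like those of the members, and their calls were not repeated on the deposited ratios. The deposited medians were -0.80 in NOD.H2h4 T cells, -0.46 in kidney cells and -0.76 in B6toNOD T cells. A rise smaller than the shift of its group lay below 0 before centring. For each list, the share of all features that passed was 39.5% in NOD.H2h4, 30.3% in B6.NODIdd1,5 and 12.2% in NOD T cells, 33.5% in kidney cells, 26.8% in NODtoB6 and 51.4% in B6toNOD T cells. Of 26 listed JAK-STAT genes, 19 were on the array. None of 19 tested passed in NOD T cells, 1 was higher and 6 lower of 19 in NOD.H2h4 T cells, and 5 were lower and none higher of 17 in B6.NODIdd1,5 T cells. In kidney cells 1 was higher and 2 lower of 19, in NODtoB6 T cells 1 and 2 of 18, and in B6toNOD T cells 2 and 4 of 18. These shares were below that of all features in every group, narrowly so in B6.NODIdd1,5 T cells. Of named genes tested there, 10.8% were higher and 18.2% lower. Tyk2, a kinase of interferon and IL-12 receptors, was at -2.48 in NOD.H2h4 T cells. Socs4, a suppressor of cytokine signalling, was lower in NOD.H2h4 (-1.58), kidney (-2.72) and B6toNOD (-1.93). Stat6, which transmits IL-4 signals from the Il4ra chain, rose in B6toNOD T cells (0.97) and kidney cells (0.43). It was at -0.02 in NOD.H2h4 T cells, where Il4ra also rose. Before centring, the kidney value of Stat6 lay below 0.

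Of 30 listed genes of TNF, IL-1 and NF-kappaB signalling, 15 were on the array. Against the same feature shares, they split 7 higher and 3 lower of 15 tested in NOD.H2h4 T cells, 0 and 5 of 14 in B6.NODIdd1,5 T cells, 4 and 0 of 15 in NOD T cells, 2 and 3 of 14 in kidney cells, 4 and 3 of 15 in NODtoB6 T cells and 6 and 3 of 14 in B6toNOD T cells, above the feature share in each group with no test of the list. Nfkbia, the inhibitor of NF-kappaB, was higher in NOD.H2h4 (1.54), NOD (0.39) and NODtoB6 (0.56) T cells and lower in B6.NODIdd1,5 T cells (-2.17). Rela, an NF-kappaB subunit, was higher in NOD.H2h4 (0.73), NOD (0.52) and B6toNOD (0.86) T cells. Before centring, its NOD.H2h4 value lay below 0. Map3k14, the kinase of the alternative NF-kappaB pathway used by BAFF and CD30, was lower in every group but NOD, from -0.61 in NOD.H2h4 to -1.40 in B6.NODIdd1,5 T cells. Of 46 cytokine, chemokine and TNF family genes under other names, 14 were on the array. They split 3 higher and 1 lower of 13 tested in NOD.H2h4, 2 and 1 of 12 in B6.NODIdd1,5 and 2 and 0 of 14 in NOD T cells, 3 and 3 of 13 in kidney cells, and 2 and 1 of 13 in NODtoB6 and 4 and 4 of 13 in B6toNOD T cells. These shares lay above those of all features in NOD, kidney and B6toNOD cells and below them in the other groups. Among them Ackr4, a scavenging chemokine receptor, was higher in NOD.H2h4 (0.51), NOD (0.65), NODtoB6 (0.40) and B6toNOD (0.35) T cells. Before centring, its NOD.H2h4 and B6toNOD values lay below 0.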

How the data were processed

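The authors deposited log2 ratios, of the profiled cells over B6 cells per the labels. The sources used here name no tool for making the ratios. Without spot intensities, which were not used here, signal over background cannot be judged. The table held 20736 probes, of which 13033 carry 1 gene symbol, 312 several and 7391 none in the platform annotation. All 36 members were matched to RefSeq by gene identifier. A value of 16.60964, the log2 of a ratio of 100000, was taken as missing. Probes of a gene were averaged and the median over features was subtracted on each array. The 6 group means were fitted over all 12 arrays and all features by lmFit and eBayes of limma 3.58.1 in R 4.3.3 (residual degrees of freedom 6, prior 1.36). Testing needed a value on every array of the groups in a comparison. Adjusted p-values are by Benjamini and Hochberg within a comparison, called under 0.05. A comparison with B6 sets the mean ratio against 0, so it holds no spread of B6 and any dye bias of a gene remains in it. Having only 2 arrays a group limits the precision. The model was tested on simulated data.

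Named members were those past the threshold with both arrays on the same side of 0 (up to 10 each way against B6, up to 6 each way for differences, 12 by F), and a fixed set of genes whatever their values. Tnfrsf12a, Il16 and other members named without passing were added to account for all members. Members, lists and tests were chosen with earlier results of these data known. Alternatives were the ratios as deposited, equal spread across arrays, a running median over 1001 probes along the probe order, other rules on missing values, kept ceiling values, a replicate block, turned NODtoB6 arrays and each array left out. Single probes were added after the values were seen.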

Additional observations from a re-analysis of the deposited data

Results flagged for a closer look

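The difference between T cells and kidney cells of B6.NODIdd1,5 mice, each against B6 cells of its tissue, was tested directly and passed for Ccl9 and Tnfsf8. Ccl9 was 2.58 higher on the log2 scale in T cells, at 1.54 and 3.63 in T cells, against 0.20 and -0.18 in kidney cells (limma, adjusted p = 0.032). The difference did not pass without B6.NODIdd1,5 T cell array 2 (1.53, adjusted p = 0.085), without kidney array 1 (2.76, adjusted p = 0.11), without kidney array 2 (2.39, adjusted p = 0.15), or without an array of the NOD (adjusted p = 0.053) or NOD.H2h4 (adjusted p = 0.056) groups.

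Tnfsf8 differed by -0.65, at 0.11 and 0.08 in T cells, against 0.77 and 0.72 in kidney cells (adjusted p = 0.013). It did not pass without kidney array 1 (-0.62, adjusted p = 0.081), without kidney array 2 (-0.67, adjusted p = 0.066) or on the deposited ratios (-0.37, adjusted p = 0.37).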

How the results depend on the processing

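Of 72 called values of named members, 10 passed in the same direction in every alternative run, the turned direction set aside: Tnfsf13b in NOD.H2h4, Ccl9 and Il18 in B6.NODIdd1,5 T cells, Il4ra in kidney, Il7, Il1rl2 and Il3ra in B6toNOD, Ifngr2 in B6.NODIdd1,5 minus NOD, and Cxcr4 and Il1rl2 in NODtoB6 minus B6toNOD. Tnfsf13b and Il18, which lacked values on some arrays, were not tested in the run over features on all 12 arrays. The B6toNOD arrays were not turned in any run, so calls with them hold in the assumed direction only. The ratios as deposited changed most, ending 31 calls and turning 12, besides 3 values that were no calls (Cxcr4 in NOD.H2h4, Ifngr2 and Lif in B6toNOD). Counts on them were 0 in NOD, 20 in NOD.H2h4, 14 in kidney, 3 in B6.NODIdd1,5 minus NOD and 1 in B6.NODIdd1,5 T cells minus kidney. Turned values there were, in NOD.H2h4, Il4ra -0.014, Il1rl2 -0.031, Il10ra -0.092, Tnfrsf9 -0.19, Il7 -0.37 and Cxcr4 -0.57; in kidney, Il7 -0.069; in B6toNOD, Il27ra -0.064, Ccl27a -0.13, Ifngr2 -0.63, Il4ra -0.23 and Lif -0.71; and in NOD.H2h4 minus NOD, Il1rl2 -0.0055, Tnfsf8 -0.17 and Il4ra -0.27. With equal spread, Il4ra in NOD.H2h4 minus NOD was -0.067, and counts were 10 in NOD, 5 in NODtoB6, 4 in NOD.H2h4 minus NOD and 4 in NODtoB6 minus B6toNOD. NODtoB6 had 6 with the running median, 1 over features on all 12 arrays and 4 with no filter on missing values. The rule of all 12 arrays left 5 in NOD.H2h4, fewer genes being tested, and no filter gave 4 in B6.NODIdd1,5 T cells minus kidney. In B6.NODIdd1,5 T cells, Ifngr2 was 0.42 by probe 2 alone and Il6st -0.36 by probe 1 alone. Apart from that by construction, the cause was not tested.

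Leaving out 1 array gave 0 to 6 calls in NOD, 6 to 14 in NOD.H2h4, 7 to 10 in B6.NODIdd1,5 T cells, 3 to 10 in kidney, 2 to 6 in NODtoB6, 13 to 18 in B6toNOD, 0 to 9 in NOD.H2h4 minus NOD, 1 to 13 in B6.NODIdd1,5 minus NOD, 0 to 6 in B6.NODIdd1,5 T cells minus kidney, 10 to 17 in NODtoB6 minus B6toNOD and 11 to 21 by F-test. A group left with 1 array is assumed to vary like the others. Replicate numbers showed no pairing in the values: deviations from group means correlated by -0.04 to 0.02 over 15 pairs of groups. Whether arrays of the same number shared animals is not given, and this correlation cannot decide it. The replicate block ended 11 calls and gave counts of 4 in B6.NODIdd1,5 minus NOD and 1 in B6.NODIdd1,5 T cells minus kidney. Depth could not be judged without spot intensities.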
